A study of Mus musculus with 6 samples.

Results

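The enzymes and receptors of lysophosphatidic acid (LPA) were compared by RNA sequencing between 4T1 and 4TO7, 2 cell lines from spontaneous mammary carcinoma of BALB/c mice. The 9 genes are the rows of the 47729-gene table named Enpp2, Ppap2a, Ppap2b, Ppap2c, Lpar1, Lpar2, Lpar3, Lpar4 and Lpar6, and all 9 were found. Ppap2a, Ppap2b and Ppap2c are older symbols of Plpp1, Plpp3 and Plpp2. Each line gave 3 libraries of total RNA from untreated cultures in serum-supplemented DMEM, without any added gene or allele in the labels. Both lines are established cell lines, so the libraries of a line do not stand for separate tumours. The labels do not state that replicate cultures were grown independently. The p-values therefore measure the spread between these libraries, which may be technical.

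As background, LPA is a small signalling lipid that is abundant in serum. Autotaxin, the secreted product of Enpp2, makes it outside the cell from lysophosphatidylcholine, and lipid phosphate phosphatases at the plasma membrane remove its phosphate. Cells sense LPA through G protein-coupled receptors that drive migration, contraction and growth. In the mammary gland and its tumours, adipose and other stromal tissue is a known source of autotaxin, and LPA signalling has been studied for its part in invasion and metastasis.

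Depth was 33605566 to 39072639 reads assigned to genes per library, and values below are normalised read counts, that is reads divided by 1 size factor per library (0.954 to 1.07). The 4TO7 replicate 2 library stood apart from 4TO7 replicates 1 and 3 on the second principal component (52.2 against -20.0 and -27.5, 5.27% of the variance). Epithelial markers were summed at 191097 to 214195 in 4T1 libraries and 25838 to 42475 in 4TO7 libraries. In 4TO7, Krt19, Cldn3 and Cldn7 were near 0. Epcam averaged 16980 in 4T1 and 23.7 in 4TO7, Cdh1 19351 and 170, and Krt7 42229 and 13.6. Krt8 averaged 47522 in 4T1 and 21578 in 4TO7, and Krt18 62753 and 13535. Fibroblast markers summed to 589.9 to 1372 in 4T1 and 1721 to 7522 in 4TO7, almost wholly Pdgfra, with Col3a1, Lum and Dpt at 0 reads in both lines. Adipocyte markers summed to 5.98 to 7.72 in 4T1 and 10.5 to 24.9 in 4TO7, and Lep had no read in either. Endothelial markers summed to 28.9 to 71.6 in 4T1 and 81.4 to 111 in 4TO7, with Erg at 0 in both. Leukocyte markers summed to 251 to 470.1 in 4T1 and 93.6 to 165 in 4TO7, with Cd3e and Tyrobp at 0 in both. Of the 8 markers in each list, those with a mean of 10 or more numbered 8 in 4T1 and 5 in 4TO7 (epithelial), 2 and 3 (fibroblast), 1 and 2 (endothelial), 2 and 1 (leukocyte) and 0 and 0 (adipocyte), 4T1 and 4TO7 in that order. The part of these differences in the results below was not tested. In bulk RNA, fewer cells with a transcript and less of it per cell cannot be told apart.

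The lines differed in the levels of most of these LPA genes. 4T1 had more transcript of Enpp2, which makes extracellular LPA, and of the phosphatases Ppap2a and Ppap2c. 4TO7 had more of the receptors Lpar1, Lpar2 and Lpar3, and it was the line in which the phosphatase Ppap2b was read at all. Lpar6 did not pass the test, and Lpar4 had no read in either line. Differences were tested with limma on log2(value + 1) with group alone, over the 14276 genes that reached a value of 10 in 3 or more libraries, and adjusted by the Benjamini-Hochberg method at a threshold of 0.05.

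Of the 9 genes, 8 passed the filter on low values and 7 passed the test, 3 higher in 4T1 and 4 higher in 4TO7. Across all genes tested, 49.0% passed, 25.1% higher in 4T1 and 23.9% higher in 4TO7. Ppap2b and Lpar3 entered the test through their 4TO7 values alone and so had to differ. Of the 6 genes at 10 or more in all 6 libraries, 5 passed. The 49.0% also covers genes that did not reach 10 in every library, and no share was taken over genes that did. The libraries of the lines did not overlap in 7 of the 8 tested genes, nor in 58.4% of all genes tested. Those 7 include Ppap2b and Lpar3, whose lack of overlap was set by the filter, and the medians below include them too. The median log2 fold change of these 8 genes was -0.17 (4T1 minus 4TO7), against 0.03 over all genes, and the median absolute log2 fold change was 1.30, against 0.57.

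**Figure D1:**
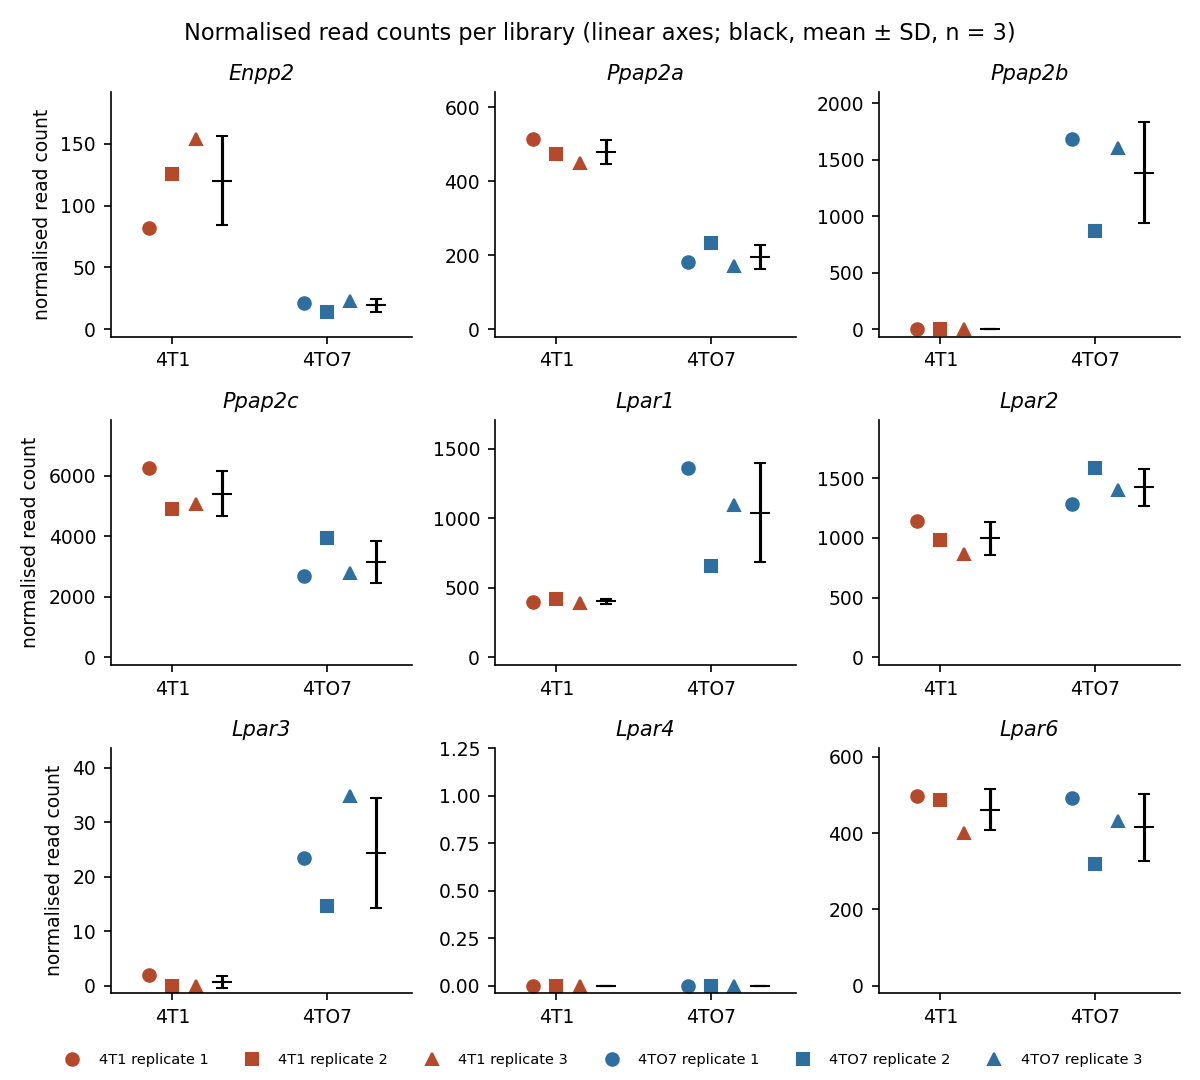
Normalised read count (linear y axes, one scale per gene) of the 9 genes in each library of 4T1 and 4TO7; markers give the replicate and the black bars the mean ± SD of 3 libraries. The 4T1 libraries lie wholly above the 4TO7 libraries for Enpp2, Ppap2a and Ppap2c and wholly below them for Ppap2b, Lpar1, Lpar2 and Lpar3, while those of Lpar6 overlap and Lpar4 is at 0 throughout.

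The start regions of the 3 genes with the largest differences toward 4TO7 are shown because one of them, Ppap2b, had no read in 4T1. The sequences are 250 bases before to 50 bases after an annotated start, from RefSeq on build GRCm38.p6, 5′ to 3′ on the strand of the gene, with every CpG dinucleotide in capitals. RefSeq windows were matched for 7 of the 9 genes, with 9 windows in all; Enpp2 and Ppap2a were not matched. Ppap2b lies at chr4:105157097-105157396 (plus strand), Lpar3 at chr3:146220711-146221010 (plus strand) and the first of 3 Lpar1 windows at chr4:58553442-58553741 (minus strand).
Ppap2b: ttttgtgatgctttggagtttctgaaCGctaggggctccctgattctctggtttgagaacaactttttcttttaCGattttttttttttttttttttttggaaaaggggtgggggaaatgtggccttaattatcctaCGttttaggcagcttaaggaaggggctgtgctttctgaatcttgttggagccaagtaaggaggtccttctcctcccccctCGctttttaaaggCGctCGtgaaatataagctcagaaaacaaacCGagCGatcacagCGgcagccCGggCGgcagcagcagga
Lpar3: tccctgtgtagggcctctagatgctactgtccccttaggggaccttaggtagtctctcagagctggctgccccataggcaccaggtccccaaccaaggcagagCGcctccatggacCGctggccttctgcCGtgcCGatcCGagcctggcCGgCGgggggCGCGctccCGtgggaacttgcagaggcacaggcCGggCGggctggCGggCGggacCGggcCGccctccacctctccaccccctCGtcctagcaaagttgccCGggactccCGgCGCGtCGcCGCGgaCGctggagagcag
Lpar1: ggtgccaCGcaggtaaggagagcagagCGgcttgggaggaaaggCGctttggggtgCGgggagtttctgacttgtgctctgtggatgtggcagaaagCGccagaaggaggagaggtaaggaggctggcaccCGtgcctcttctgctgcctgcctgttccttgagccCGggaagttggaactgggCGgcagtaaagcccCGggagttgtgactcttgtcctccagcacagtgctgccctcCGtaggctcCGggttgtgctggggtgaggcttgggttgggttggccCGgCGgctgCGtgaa

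The Ppap2b window held 11 CpGs, the Lpar3 window 25 and the Lpar1 window 14, while the other Lpar1 windows held 37 and 3. The median over 32851 mouse windows of the same length was 7. The Lpar6 window held 1 CpG, and 5.43% of all windows held fewer. The letters GGGCGG (GC box, either strand) occurred 3 times in the Lpar3 window and once each in those of Ppap2b and Lpar1, and in 35.7% of all windows. The letters TATAAA (13.6% of all windows), CCAAT (37.4%), CACGTG (7.15%) and TGACTCA (5.2%), also searched on both strands, were in none of these 3 printed windows. The window of Lpar2 held CACGTG at 2 places and TGACTCA at 1. Among all 9 windows, 1 match to GGGCGG and 1 to CCAAT overlapped each other, both in the window of Lpar4, and a match or its absence describes the letters of the window alone.

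Enpp2 encodes autotaxin, the secreted lysophospholipase D that generates LPA (ENSMUSG00000022425, GRCm38 chromosome 15, 54838901 to 54952892, minus strand). It had 81.7, 126 and 153 normalised reads in 4T1 replicates 1 to 3, against 21.5, 13.6 and 22.9 in 4TO7 replicates 1 to 3. The lowest 4T1 library was well above the highest 4TO7 library, although both lines gave few reads (366 in 4T1 and 59 in 4TO7). The mean was 120.3 ± 36.2 in 4T1 and 19.3 ± 5.0 in 4TO7 (SD, n = 3 each), a 6.22-fold difference. The log2 fold change was 2.56 ± 0.33 (SE; limma adjusted p = 0.00042). It kept its call in all 16 alternatives, with log2 fold changes between 2.34 and 2.81. Of its merged exon bases, 345 (5.97%) overlap Gm26684, a noncoding RNA on the opposite strand, and no source used here says whether counting used strand.

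The lipid phosphate phosphatases are membrane enzymes that dephosphorylate LPA and related lipids. Ppap2c (Plpp2; ENSMUSG00000052151, chromosome 10, 79526430 to 79533796, minus strand) was the most read of the 9 genes. It had 6269, 4919 and 5057 normalised reads in 4T1, against 2693, 3957 and 2799 in 4TO7. The lines did not overlap, but 4TO7 replicate 2 came closer to 4T1 than the other 4TO7 libraries did. The mean was 5415 ± 743 in 4T1 and 3149.6 ± 702 in 4TO7, 1.72-fold higher in 4T1 (log2 fold change 0.80 ± 0.18 SE, limma adjusted p = 0.00777).

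Ppap2a (Plpp1; ENSMUSG00000021759, chromosome 13, 112800792 to 112867894, plus strand) had 514, 473 and 449.9 normalised reads in 4T1, against 182, 234 and 170.2 in 4TO7. Every 4T1 library was above every 4TO7 library. The difference was 2.45-fold (log2 fold change 1.30 ± 0.20 SE, limma adjusted p = 0.000971). Of its merged exon bases, 452 (25.8%) overlap Mtrex on the opposite strand, which the table lists as Skiv2l2 and which was named here after the overlap was seen. Skiv2l2, an RNA helicase gene, had 5136, 5873 and 5145 normalised reads in 4T1, against 2128, 2915 and 2080.2 in 4TO7 (log2 fold change 1.20 ± 0.16 SE, adjusted p = 0.000558). The part of its reads in the Ppap2a value was not tested.

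Ppap2b (Plpp3; ENSMUSG00000028517, chromosome 4, 105157347 to 105232764, plus strand) encodes a phosphatase known for limiting LPA signalling in blood vessels. It had 0 reads in each of the 3 4T1 libraries, against 1680.3, 872 and 1608 normalised reads in 4TO7. All 4TO7 libraries thus held many reads and no 4T1 library held any. With 0 of 114704105 reads in 4T1, a floor of 3 reads over that line sets the 4TO7 level at least 1401-fold higher, counting error alone considered. The mean in 4TO7 was 1387 ± 447 (limma adjusted p = 1.62e-07). The fitted log2 fold change of -10.38 is no bound: it was -8.06 with a pseudocount of 5 and -11.38 with a pseudocount of 0.5, and edgeR's quasi-likelihood fit of the recovered reads gave -13.47.

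Levels of different genes were compared per kilobase of merged exon in GENCODE vM21 (GRCm38), which may not be the annotation that was counted. The 3 phosphatases together summed to 4084, 3245 and 3314 normalised reads per kb in 4T1, against 2264, 2802 and 2299 in 4TO7. Ppap2c made up 91.7 to 92.8% of that sum in 4T1 and 71.9 to 85.4% in 4TO7. Ppap2a made up 7.19 to 8.34% in 4T1 and 4.23 to 4.77% in 4TO7. Ppap2b added 0% in 4T1 and 9.85 to 23.5% in 4TO7, lowest in 4TO7 replicate 2. In 4TO7, the level of Ppap2b per kb (439 ± 142) was thus above that of Ppap2a (112 ± 19.3), with no overlap of their libraries. These sums and shares are descriptions without a test.

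**Figure D2:**
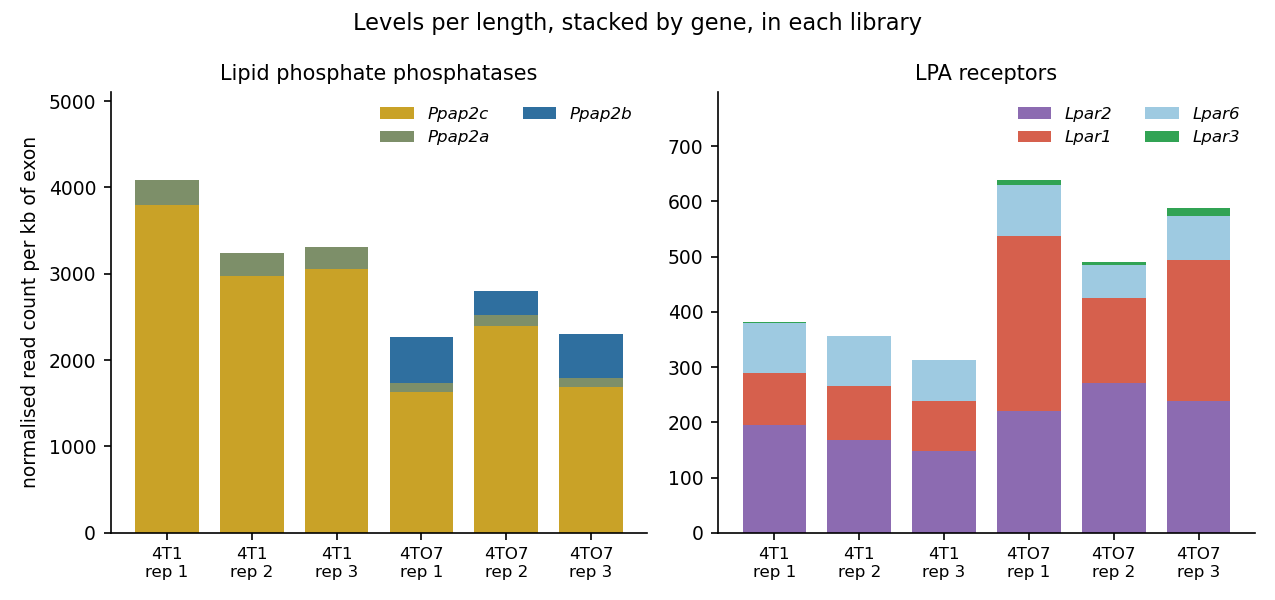
Normalised read count per kb of merged exon, stacked by gene, in each library (4T1 replicates, then 4TO7 replicates), for the phosphatases on the left and the receptors on the right. Ppap2b appears in the 4TO7 bars alone, and the receptor bars are 313 to 381 high in 4T1 and 491 to 638 high in 4TO7.

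Lpar1, Lpar2 and Lpar3 encode LPA receptors of the EDG family. Lpar1 (ENSMUSG00000038668, chromosome 4, 58435255 to 58553898, minus strand) is the LPA receptor best known for driving cell migration. It had 399.5, 419 and 389 normalised reads in 4T1, against 1363, 659 and 1093 in 4TO7. The 4T1 libraries lay close together and all below the 4TO7 libraries, of which replicate 2 was lowest. The mean was 403 ± 15.5 in 4T1 and 1038 ± 355 in 4TO7, 2.58-fold higher in 4TO7 (log2 fold change -1.30 ± 0.26 SE, limma adjusted p = 0.00381). Without 4TO7 replicate 2 the difference was 3.05-fold.

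Lpar2 (ENSMUSG00000031861, chromosome 8, 69822429 to 69831102, plus strand) had 1139, 979 and 866 normalised reads in 4T1, against 1282, 1587 and 1396 in 4TO7. The lines did not overlap, but the gap between them was smaller than the range within either. The mean was 995 ± 137 in 4T1 and 1422 ± 154 in 4TO7, 1.43-fold higher in 4TO7 (log2 fold change -0.52 ± 0.16 SE, limma adjusted p = 0.0282). It did not pass when 4T1 replicate 2 was left out (adjusted p = 0.0761), nor on leaving out 4T1 replicate 3 (adjusted p = 0.0971), 4TO7 replicate 2 (0.0504) or 4TO7 replicate 3 (0.0726).

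Lpar3 (ENSMUSG00000036832, chromosome 3, 146220963 to 146286186, plus strand) was rare. It had 2 reads in 4T1, both in replicate 1, against 25, 14 and 35 reads in 4TO7 replicates 1 to 3, or 23.4, 14.7 and 34.8 normalised. All 4TO7 libraries were above all 4T1 libraries. The ratio of reads was 37.0 (exact 95% interval 9.9 to 312, counting error only), and without 4T1 replicate 1 it was at least 16.5-fold against a floor of 3 reads over the other two 4T1 libraries. The log2 fold change was -4.05 ± 0.54 (SE; limma adjusted p = 0.000465).

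Lpar4 and Lpar6 encode LPA receptors related to purinergic receptors. Lpar4 (ENSMUSG00000049929, chromosome X, 106920625 to 106933900, plus strand) had 0 of 114704105 reads in 4T1 and 0 of 104742527 in 4TO7, which allows up to 3 reads over each line (counting error only). It was not detectable in either line. Lpar6 (ENSMUSG00000033446, chromosome 14, 73237895 to 73243294, plus strand), a receptor known in humans from inherited hair loss, had 497, 487 and 399.7 normalised reads in 4T1, against 493, 319.7 and 432 in 4TO7. The lines overlapped, and the log2 fold change was 0.17 (95% interval -0.32 to 0.66; limma adjusted p = 0.538). Without 4TO7 replicate 2 it was -0.01.

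Lpar6 is a gene of 1 exon within the span of Rb1, the retinoblastoma gene, which lies on the opposite strand, and 408 of its 5400 exon bases (7.56%) are also annotated as exon of Rb1. Rb1 had 491, 568 and 968 normalised reads in 4T1, against 1609, 785 and 1936 in 4TO7, with a log2 fold change of -1.06 ± 0.37 (SE; limma adjusted p = 0.0426). Rb1 did not pass with neither trend nor robust estimation (adjusted p = 0.0683), nor when any of 4 libraries was left out: 4T1 replicate 1 (0.159) or 2 (0.131), or 4TO7 replicate 1 (0.121) or 3 (0.132). The part of Rb1 reads in the Lpar6 value was not tested.

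The receptors together summed to 381, 356 and 313 normalised reads per kb in 4T1, against 638, 491 and 588 in 4TO7. Lpar2 was the leading receptor of 4T1, with 47.2 to 51.2% of the sum, against 34.4 to 55.4% in 4TO7. Lpar1 made up 24.4 to 29.0% in 4T1 and 31.3 to 49.8% in 4TO7, and Lpar6 made up 23.6 to 25.4% in 4T1 and 12.1 to 14.3% in 4TO7. In 4TO7 replicates 1 and 3 Lpar1 was ahead of Lpar2, and in 4TO7 replicate 2 the order was the opposite. The mean level per kb in 4TO7 was 242 ± 82.8 for Lpar1 and 244 ± 26.4 for Lpar2.

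The order of levels per kb in 4T1 ran from Ppap2c (3274 ± 449) over Ppap2a (274 ± 18.4), Lpar2 (170.4 ± 23.5), Lpar1 (93.9 ± 3.60), Lpar6 (85.5 ± 9.95) and Enpp2 (20.8 ± 6.26) to Lpar3 (0.273 ± 0.473). The libraries of Lpar1 and Lpar6 overlapped, as did those of Lpar3 with the 2 genes at 0 reads, and the other neighbours did not. In 4TO7 it ran from Ppap2c (1904 ± 424) over Ppap2b, Lpar2, Lpar1, Ppap2a, Lpar6 (76.8 ± 16.3) and Lpar3 (9.86 ± 4.10) to Enpp2 (3.35 ± 0.865), with Lpar4 at 0. Only the neighbours Lpar2 and Lpar1 overlapped there. Enpp2 therefore stood above Lpar3 in 4T1 and below it in 4TO7.

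**Figure D3:**
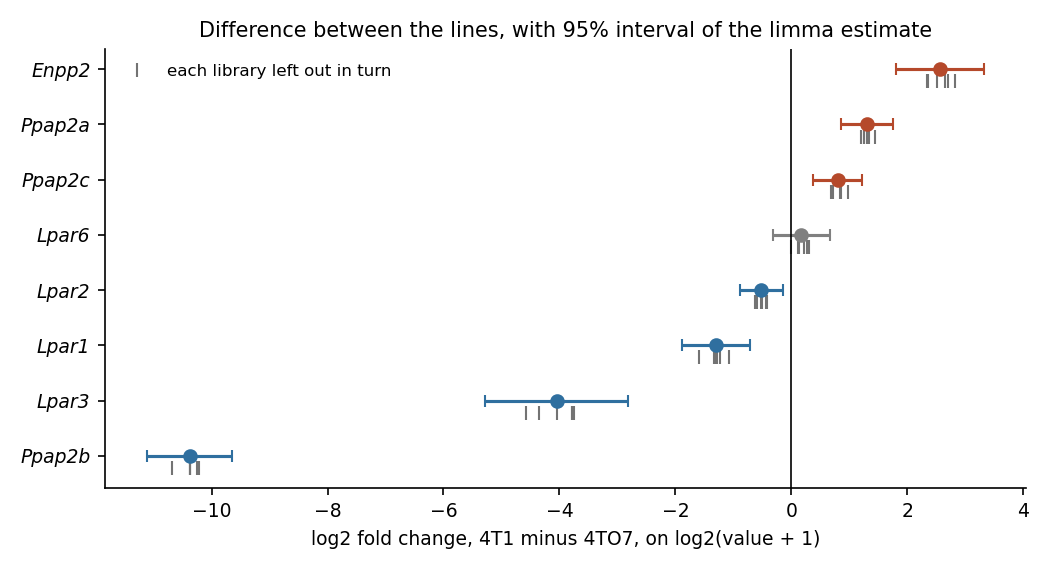
Log2 fold change (4T1 minus 4TO7, on log2(value + 1)) of the 8 tested genes with the 95% interval of the limma estimate; grey ticks give the estimate with each library left out in turn. Points right of 0 are higher in 4T1 and left of 0 higher in 4TO7, and the interval of Lpar6 spans 0; Ppap2b has no read in 4T1, so its point depends on the pseudocount.

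The authors' deposited table, whose fold changes run 4TO7 over 4T1, gave the same 7 genes adjusted p-values under 0.05. Its log2 fold changes were -2.63 for Enpp2, -1.29 for Ppap2a, -0.78 for Ppap2c, 12.89 for Ppap2b, 1.37 for Lpar1, 0.52 for Lpar2 and 5.20 for Lpar3 in the authors' deposited table. Lpar6 had an adjusted p of 0.662 in the authors' deposited table.

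Around these genes, 64 further genes of LPA and sphingosine 1-phosphate (S1P) handling were counted in 7 lists. Those that could be tested numbered 49; 9 passed toward 4T1 and 16 toward 4TO7, or 51.0%, near the 49.0% over all genes. Of the 16, Enpp3 and Ppapdc3 entered the test through their 4TO7 values alone and so had to differ. Without these 2 genes, 9 passed toward 4T1 and 14 toward 4TO7, all at 10 or more in all 6 libraries. No share was taken over all genes at that level. The median log2 fold change of the 49 genes was 0.04, against 0.03 over all genes. Lpar5, a further LPA receptor gene, had 1 read in 4T1 and 4 in 4TO7 and was not tested.

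Of 7 other LPA-producing phospholipases 5 were tested: 2 passed toward 4T1 and 2 toward 4TO7, against 25.1% and 23.9% over all genes. Pla1a, a secreted phospholipase that acts on phosphatidylserine, had 436, 419 and 387 normalised reads in 4T1, against 102, 79.7 and 91.6 in 4TO7 (log2 fold change 2.18 ± 0.20 SE, limma adjusted p = 5.35e-05). Pla2g4a, cytosolic phospholipase A2, was 2.52-fold higher in 4T1 (5859 ± 256 against 2322 ± 246). Pld1 and Pld2, which make phosphatidic acid, were 2.08-fold and 1.53-fold higher in 4TO7. Pld2 did not pass when 4T1 replicate 1 (0.0795) or 2 (0.107), or 4TO7 replicate 1 (0.109) or 3 (0.108), was left out (adjusted p in brackets).

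Of the 6 other ENPP family genes 4 were tested: 0 passed toward 4T1 and 2 toward 4TO7, against 25.1% and 23.9% over all genes, and 1 of the 2, Enpp3, had to differ because its 4TO7 values alone passed the filter. Enpp3, an ectoenzyme that cleaves nucleotides, had 3.03, 0 and 1.93 normalised reads in 4T1, against 347, 66.0 and 234 in 4TO7, or 131-fold. That fold rests on 5 reads in 4T1 and ran between 87.0 (without 4T1 replicate 2) and 223 (without 4T1 replicate 1) as libraries were left out in turn. So Enpp2 and Enpp3 differed in opposite directions. Enpp5 was 2.12-fold higher in 4TO7 with overlapping libraries, and it missed the threshold when 4T1 replicate 1 (0.0954) or 2 (0.104), or 4TO7 replicate 1 (0.0786) or 3 (0.0845), was left out (adjusted p in brackets).

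Of 12 other lipid phosphatases and relatives 7 were tested: 1 passed toward 4T1 and 4 toward 4TO7 (71.4%, against 49.0% over all genes). Of the 4, Ppapdc3 had to differ because its 4TO7 values alone passed the filter. Ppapdc3 (Plpp7) had 2 reads in 4T1 and 310 in 4TO7, a ratio of 155 (exact 95% interval 42.6 to 1287, counting error only). Lppr3 and Lppr2, members of the plasticity-related gene family, were 12.3-fold and 5.65-fold higher in 4TO7. As libraries were left out in turn, the fold ran between 9.38 and 16.6 for Lppr3 and between 4.69 and 7.03 for Lppr2. Ppapdc2 (Plpp6) was 1.71-fold higher in 4T1. Ppap2b, Lpar3, Ppapdc3 and Enpp3 had 0, 2, 2 and 5 reads in 4T1, in that order. All of them entered the test through 4TO7 alone, so low values in 4T1 were set by the filter.

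Inside the cell, 13 acyltransferases, lipins and the lipid kinase Agk were tested: 3 passed toward 4T1 and 2 toward 4TO7. That was 38.5%, against 49.0% over all genes. The acyltransferases Agpat5, Agpat2 and Agpat6 (Gpat4) were 2.62-fold, 1.96-fold and 1.69-fold higher in 4T1, and Agk, which phosphorylates acylglycerol, 1.83-fold higher in 4TO7. The acyltransferases did not all differ in 1 direction: Agpat4, named after its values were seen, was 1.62-fold higher in 4TO7 (583 ± 139 in 4T1 and 946 ± 207 in 4TO7, limma adjusted p = 0.0417). It missed the threshold with neither trend nor robust estimation (0.0604) and when 4T1 replicate 1 (0.0826) or 2 (0.136), or 4TO7 replicate 1 (0.131) or 3 (0.131), was left out (adjusted p in brackets). For the S1P system, 6 of 9 genes were tested: 1 passed toward 4T1 and 3 toward 4TO7 (66.7%, against 49.0% over all genes). Sphk1, a kinase that makes S1P, had 782, 708 and 858 normalised reads in 4T1, against 54.3, 17.8 and 82.6 in 4TO7 (15.2-fold). The receptors S1pr1 and S1pr2 were 4.16-fold and 2.88-fold higher in 4TO7. Sphk2, also a kinase that makes S1P, averaged 825 in 4T1 and 1205 in 4TO7. It was 1.46-fold higher in 4TO7, but not past the threshold when 4T1 replicate 2 or 3 was left out (adjusted p = 0.0502 and 0.0579).

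Of 15 G proteins, RhoGEFs and downstream genes through which LPA receptors signal 14 were tested: 2 passed toward 4T1 and 3 toward 4TO7. The share was 35.7%, against 49.0% over all genes. Arhgef11, a RhoGEF activated by G12/13 subunits, was 1.68-fold higher in 4TO7. Rhoa was 1.48-fold higher in 4T1. Gna12 was 1.44-fold higher in 4TO7, but not past the threshold when 4TO7 replicate 1 or 3 was left out (adjusted p = 0.0612 and 0.0532). Rhoc was 1.48-fold higher in 4T1, but missed the threshold under equal totals per library (adjusted p = 0.0943), quantile normalisation (0.119) and with neither trend nor robust estimation (0.0638). It also missed it when 4T1 replicate 1 (0.11) or 3 (0.0971), or 4TO7 replicate 2 (0.0554) or 3 (0.0592), was left out (adjusted p in brackets). Exons on the opposite strand overlap 18.9% of the exon bases of Agpat5 (Gm35934), 13.3% of Gna12 (Amz1) and 12.5% of Arhgef11 (Lrrc71). For Sphk2 they overlap 13.0% (Dbp) and 8.97% (Rpl18, a ribosomal protein gene). Smaller overlaps among the named genes include Ppapdc2 (7.07%, 4430402I18Rik), Pld2 (7.01%, Gm10418) and Lppr3 (5.76%, Ptbp1, and 3.65%, Prtn3). The part of the overlapping genes' reads in these values was not tested.

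**Figure D4:**
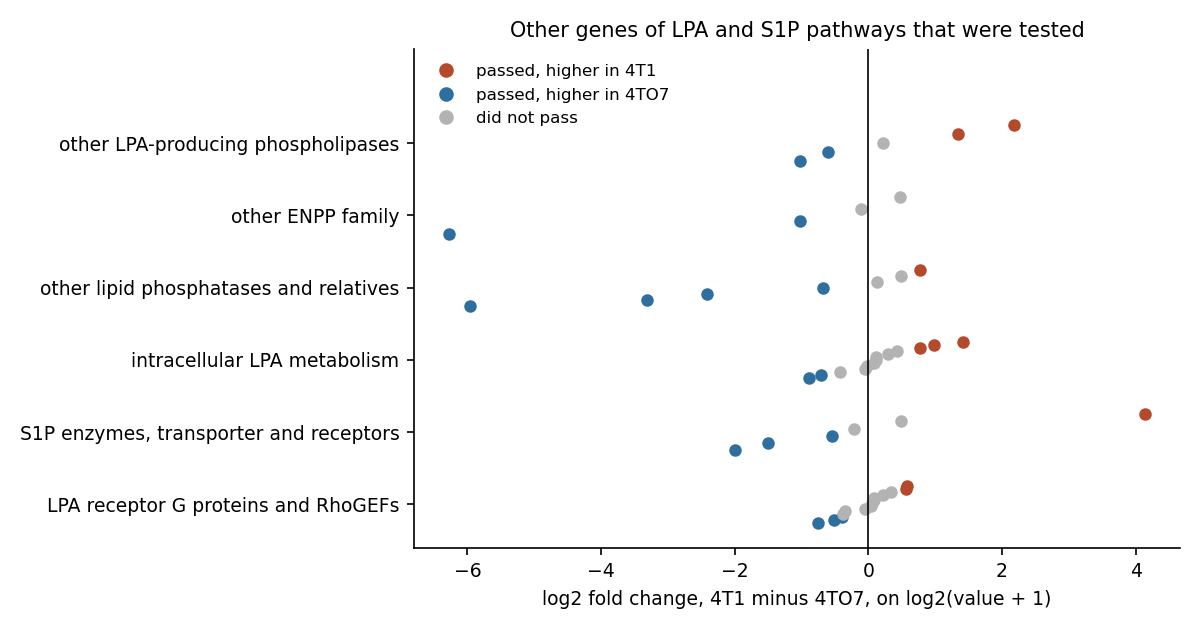
Log2 fold change (4T1 minus 4TO7, on log2(value + 1)) of the 49 tested genes of the other lists, 1 point per gene, coloured by call. Points lie on both sides of 0, with Sphk1 farthest to the right and Enpp3 and Ppapdc3 farthest to the left.

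The gene closest in pattern to each of the 7 genes that passed was sought by Pearson r over the 6 libraries on the log2 scale. These were Steap4 for Enpp2 (r = 0.999), Foxred1 for Ppap2a (r = 0.9995), Gm15127 for Ppap2b (r = 0.99997), Ptpn2 for Ppap2c (r = 0.997), Itgb8 for Lpar1 (r = 0.998), Mepce for Lpar2 (r = 0.996) and Btbd6 for Lpar3 (r = 0.999). Because the points share 2 lines of 3 libraries, high r is common: 97 genes for Lpar2 and 1653 for Ppap2a exceeded 0.95 among 14275. A high r does not mean a difference of like size. Btbd6 had 487, 425 and 420 normalised reads in 4T1, against 636, 605 and 654 in 4TO7, unlike the rare Lpar3.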

How the data were processed

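The deposited table lists 47729 genes with 6 sample columns, which hold a normalised signal: read counts per gene after the authors' division by a size factor for each library, per the file headers. Per the submitters' processing notes, STAR 2.5, featureCounts 1.5, DESeq2 and build GRCm38 were used; annotation release and strand setting are not given in the sources used here. The authors' deposited table also gives a log2 fold change, its standard error and test score, and p-values before and after adjustment. All nonzero values were whole multiples of 1 step per library (100% within 1e-06 of a whole read), so reads were recovered for depth and for the alternative count tests; in 3 libraries that step lies within about 1% of 1.

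Values were tested as deposited on log2(value + 1) with limma 3.58.1 in R 4.3.3 (trend and robust estimation, group alone, two-sided), after keeping genes with at least 10 in at least 3 of 6 libraries. Alternatives changed the pseudocount, filter, scaling, variance model and libraries, added the replicate number as a block, or used edgeR 4.0.16 and DESeq2 1.42.0 on the recovered reads. The fit was also run on simulated data. Those held far fewer changed genes than these data, so that run does not bear on the calls here. Genes, lists and tests were chosen with earlier results of these data known. All 9 genes are named, and of each other list up to 4 that passed, by fold change. Some list genes are not reported here. Intervals and floors (3 reads) cover counting error only.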

Additional observations from a re-analysis of the deposited data

How the results depend on the processing

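Over all genes, 6997 passed, and 5973 to 7898 passed in the alternatives that kept all libraries, 7750 of them with the replicate number as a block; leaving out 1 library gave 5242 (4TO7 replicate 1) to 8064 (4TO7 replicate 2). Of the LPA genes 7 passed, and 6 or 7 did in each of 16 alternatives; the lost one was Lpar2 in 4 of the sets of 5 libraries and Lpar3 with a filter of at least 50, where it was not tested. Of the other lists 25 passed, against 19 to 28. Equal totals per library moved the median of all genes by -0.13 (log2), and no LPA gene that passed changed direction in any alternative. Whether the replicate numbers pair the libraries was not settled. Deviations of same-numbered libraries correlated at r = -0.01, 0.27 and 0.33, against -0.39 to 0.27 for libraries of different number. With the replicate block, the same counts of 3 and 4 LPA genes passed, and 27 of the other lists. Depth limits Lpar3, Enpp2 and Lpar4, which rest on few or no reads.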

Other observations

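Some genes of the lists were read in 1 line and too rarely to be tested; they are named here after their values were seen. For Lppr4, a plasticity-related gene, 30 reads in 4T1 stood against 0 in 4TO7 (at least 9.92-fold higher in 4T1, against a floor of 3 reads over the libraries of a line), whereas its relatives Lppr2 and Lppr3 were higher in 4TO7. Enpp6, a choline-specific phosphodiesterase, had 0 reads in 4T1 and 15 in 4TO7, at least 4.92-fold higher in 4TO7. Neither difference has a test.

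The 4TO7 replicate 2 library lay nearer to the 4T1 mean than the other 4TO7 libraries in 5 of the 7 LPA genes that passed (Ppap2a, Ppap2b, Ppap2c, Lpar1 and Lpar3). Over all 6997 genes that passed, it was the nearest 4TO7 library in 62.5%. For Enpp2 and Lpar2 it was the 4TO7 library farthest from 4T1. Ppap2b had 832 reads in that library, against 0 reads in every 4T1 library.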
